A study of Mus musculus with 8 samples.

Results

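Of the 19201 genes in a table of hippocampal RNA from wild-type and Mbd2-/- mice, 10 belong to the response to glucocorticoids and corticotropin releasing hormone (CRH), and their expression is described here gene by gene. They were picked by gene symbol for their known function, with earlier results of these data known, and the rule uses no measured value. Nr3c1 and Nr3c2 encode the receptors, Hsd11b1 encodes an enzyme that makes active hormone inside cells, Fkbp5, Sgk1, Tsc22d3 and Zbtb16 are genes that the receptors turn on, and Crh, Crhr1 and Crhbp encode CRH, a receptor for it and its binding protein. Mbd2 is a protein that binds methylated CpG sites, and the comparison asks which hippocampal genes depend on it. The wild-type libraries came from C57BL/6 mice and the Mbd2-/- libraries from mice with a constitutive deletion on the C57BL/6 background, with 4 libraries per genotype. The mice were 10 to 12 weeks old and the labels name no treatment, the genotypes were littermates of heterozygous parents, and the RNA of a library came from the hippocampi of a pair of mice. A library is therefore a pool, and its value is an average over animals. The deletion was present in every cell of the body from conception, so that hippocampal cells and the rest of the animal, the adrenal gland included, lacked Mbd2 together. No hormone level was measured in these files.

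Corticosterone, the main glucocorticoid of the mouse, reaches the brain from the adrenal gland and binds a pair of related receptors that act as transcription factors. The mineralocorticoid receptor Nr3c2 binds it tightly and is abundant in hippocampal neurons, whereas the glucocorticoid receptor Nr3c1 is occupied mostly at the daily peak and during stress. Bound receptors attach to short DNA elements and raise genes such as Fkbp5, whose product in turn lowers the affinity of the receptor for the hormone. CRH starts the hormonal cascade from the hypothalamus, and in the hippocampus it is made by a small set of interneurons.

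Promoter windows of 250 bases before to 50 bases after the annotated start were taken from RefSeq on GRCm38.p6 for 7 of the 10 genes, 14 windows in all, and not for Nr3c1, Zbtb16 and Crh. Mbd2 binds CpG sites when they are methylated, and the capitals in the first and second windows below mark each CG. Hsd11b1, on the minus strand at chr1:193242311-193242610, is shown because it was the stress gene with the largest change, and it holds 6 CG, which is close to the median of 7 over 32851 windows of all genes. Fkbp5, on the minus strand at chr17:28486100-28486399, is shown for contrast as the window of the 7 genes with the most, 32 CG, more than in 90.5% of all windows.
Hsd11b1: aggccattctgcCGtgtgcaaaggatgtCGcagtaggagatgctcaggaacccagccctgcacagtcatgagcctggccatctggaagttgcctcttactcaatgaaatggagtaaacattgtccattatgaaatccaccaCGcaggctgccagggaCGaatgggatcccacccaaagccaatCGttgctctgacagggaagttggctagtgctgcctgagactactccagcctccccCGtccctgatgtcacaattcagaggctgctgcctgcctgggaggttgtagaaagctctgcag
Fkbp5: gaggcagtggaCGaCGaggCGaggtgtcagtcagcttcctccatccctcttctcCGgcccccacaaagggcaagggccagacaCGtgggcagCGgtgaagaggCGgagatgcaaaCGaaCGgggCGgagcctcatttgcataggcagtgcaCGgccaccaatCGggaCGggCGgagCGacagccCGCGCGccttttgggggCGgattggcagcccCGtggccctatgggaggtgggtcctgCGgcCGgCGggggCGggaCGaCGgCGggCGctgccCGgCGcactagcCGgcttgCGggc
The receptors bind a palindrome of a short element and its inverted copy, and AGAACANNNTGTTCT was searched in every window (it reads the same on both strands). It stood in 3 of 32851 windows, 0.00913%, and 1 of these was a window of Sgk1, on the plus strand at chr10:21993640-21993939, where the capitals mark it from position -189 to -175 before the start.
Sgk1: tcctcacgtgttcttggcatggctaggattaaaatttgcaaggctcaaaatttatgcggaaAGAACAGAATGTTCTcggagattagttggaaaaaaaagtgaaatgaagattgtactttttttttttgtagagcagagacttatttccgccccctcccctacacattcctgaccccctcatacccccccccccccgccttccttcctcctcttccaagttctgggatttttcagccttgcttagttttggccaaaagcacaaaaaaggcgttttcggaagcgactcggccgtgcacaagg
This was 1 of 6 windows of Sgk1, and the other 5 held no full element. The short element, AGAACA or TGTTCT, which is part of the full one, stood in 19.0% of all windows, and in the windows of the other 6 genes it was found once, in 1 of 3 windows of Tsc22d3. The CG count was 17 in the window of Nr3c2, 31 in that of Crhr1 and 9 in that of Crhbp. These matches describe the letters of a window, and no binding was measured in the files used here.

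The libraries held 8087750 to 23790825 reads on genes, and a normalized count is the number of reads on a gene after division by a size factor of its library. The targeted gene was lower in the Mbd2-/- libraries. Mbd2, at chr18:70727843-70785785 of mm9, had 295, 363, 371 and 354 normalized counts in wild-type libraries 1 to 4 and 244, 240, 339 and 217 in Mbd2-/- libraries 1 to 4, a log2 difference of -0.43 (SE 0.12, adjusted p = 0.0174, limma). Mbd2-/- library 3 lay inside the wild-type range, and the count covers the whole gene, of which this allele still makes the first exon, so the value checks the labels only in part. The adjusted p was 0.0624, 0.0539 and 0.0576 without wild-type replicate 3, Mbd2-/- replicate 1 or Mbd2-/- replicate 2. Mbd2-/- library 4 stood apart from the others, since without it 5156 genes were called and not 3185, whereas leaving out wild-type replicate 1 (2099), wild-type replicate 3 (2073), Mbd2-/- replicate 1 (2100) or Mbd2-/- replicate 2 (2109) lowered the count.

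Of the 10 genes, 2 changed with the genotype. Hsd11b1 rose by 44.8% and Zbtb16 fell by 25.2% in Mbd2-/- hippocampus, and both calls held in all 22 alternative analyses. No change passed the test in the other 8 genes, and without Mbd2-/- replicate 4 the genes called lower were 3, Zbtb16, Nr3c2 and Sgk1, against 17.7% of all tested genes. The calling threshold was an adjusted p of 0.05 (limma, Benjamini-Hochberg) over the 14504 genes that averaged 10 or more normalized counts, and all 10 genes were among them. Over all tested genes 22.0% were called, 12.0% higher and 10.0% lower, so that the share of the stress genes was near the background. The libraries of the genotypes did not overlap for 4 of the 10 genes (Nr3c2, Hsd11b1, Fkbp5 and Zbtb16), against 23.6% of all tested genes.

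**Figure D1:**
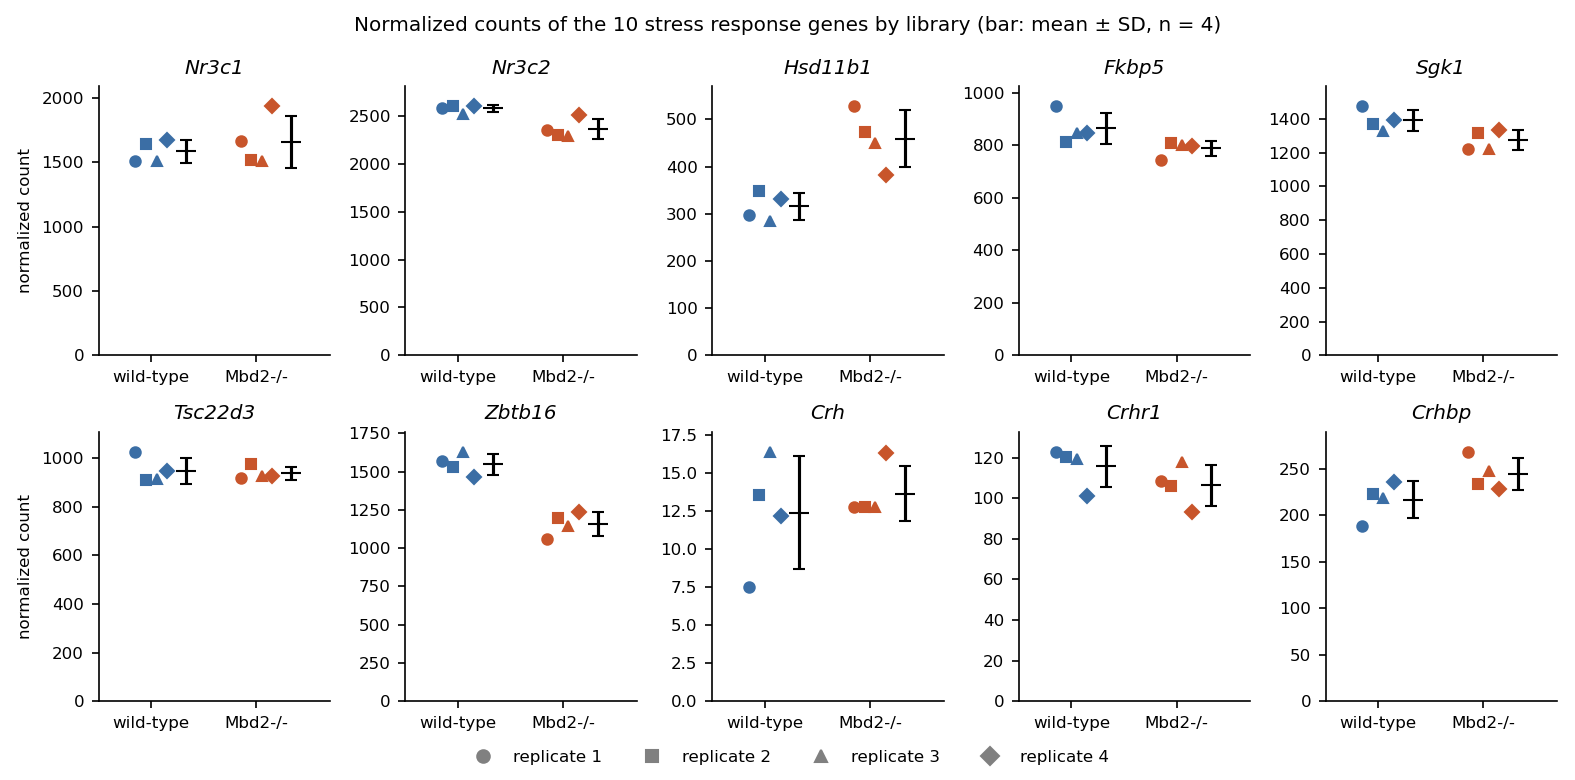
Normalized count (vertical axis, from 0) of each of the 10 genes in each library, with wild-type in blue, Mbd2-/- in orange, a symbol for each replicate number and the mean ± SD (n = 4) beside the points. In Hsd11b1 all 4 Mbd2-/- points lie above the wild-type points and in Zbtb16 all 4 lie below them, while in Nr3c1, Tsc22d3 and Crh the genotypes overlap.

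The receptors did not change at the threshold. Nr3c2, at chr8:79423341-79768911, had 2590, 2604, 2523 and 2607 normalized counts in wild-type libraries 1 to 4 and 2360, 2299, 2295 and 2510 in Mbd2-/- libraries 1 to 4. Every Mbd2-/- value was below every wild-type value and the narrowest gap was between Mbd2-/- library 4 and wild-type library 3. The means were 2581 ± 39.2 and 2366 ± 100.5 (SD, n = 4), a log2 difference of -0.13 with a 95% interval of -0.23 to -0.02 (adjusted p = 0.0726, limma). The gene was called only when Mbd2-/- replicate 4 was left out (adjusted p = 0.00567, limma), and when the trend of each library on transcript length was removed the log2 difference was -0.03 (adjusted p = 0.698, limma). A noncoding gene, Gm10649, named once its values were known, overlaps Nr3c2 on the opposite strand with a mean of 77.5 normalized counts, and whether reads were counted by strand is not given in the sources used here.

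Nr3c1, at chr18:39570199-39650955, had 1509, 1644, 1511 and 1671 normalized counts in wild-type libraries 1 to 4 and 1663, 1520, 1506 and 1937 in Mbd2-/- libraries 1 to 4. The genotypes overlapped, and the highest value belonged to Mbd2-/- library 4. The means were 1584 ± 86.1 and 1657 ± 200.1 (SD, n = 4), and the log2 difference of 0.06 had a 95% interval of -0.10 to 0.21 (adjusted p = 0.601, limma). With the length trend removed the log2 difference was 0.17 (95% interval 0.04 to 0.29, adjusted p = 0.0615, limma), which was called only when a replicate block was fitted as well (adjusted p = 0.0324, limma). Without Mbd2-/- replicate 4 it was -0.02. The gene lies 31.1 Mb from Mbd2 on the same chromosome.

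Because both receptors bind the same hormone, their balance was also computed in each library. The ratio of Nr3c2 to Nr3c1 counts was 1.72, 1.58, 1.67 and 1.56 in wild-type libraries 1 to 4 and 1.42, 1.51, 1.52 and 1.30 in Mbd2-/- libraries 1 to 4. The ratio was lower in each of the 4 Mbd2-/- libraries than in any wild-type library, with means of 1.63 ± 0.0732 and 1.44 ± 0.106 (SD, n = 4). It was computed as a description and not tested. Within a genotype, libraries with more Nr3c1 also had more Nr3c2 (Pearson's r of 0.951 over the 8 deviations from the genotype means, exact permutation p = 0.00694, Spearman's rho of 0.929, exact permutation p = 0.0104, and r of 0.840 without the 2 libraries farthest from the median). The trend on transcript length was not removed here, and both transcripts are long (6436 bases for Nr3c1 and 5916 for Nr3c2). Its part in this correlation was not tested. The receptors were 1 of 45 pairs of the 10 genes, and after adjustment over the pairs the permutation p was 0.156. None of the 45 pairs had an adjusted p under 0.05, and 6 had an unadjusted one.

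Hsd11b1 rose in Mbd2-/- hippocampus. Its product regenerates active corticosterone from an inert metabolite and thereby raises the hormone inside the cell. The gene, at chr1:195047824-195090248 of mm9, had 298, 349, 284 and 330 normalized counts in wild-type libraries 1 to 4 and 529, 473, 451 and 382 in Mbd2-/- libraries 1 to 4. All 4 Mbd2-/- libraries were above the wild-type range, library 1 farthest and library 4 least. The means were 315.5 ± 29.5 and 458.7 ± 60.4 (SD, n = 4), a log2 difference of 0.53 (SE 0.09, 95% interval 0.34 to 0.73, adjusted p = 0.00110, limma). In 22 of 22 alternatives it stayed called, with log2 differences from 0.38 to 0.62. Its transcript is short, at 1583 bases, and the lowest of these values came when the length trend was removed.

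Zbtb16 fell. It encodes the zinc finger repressor PLZF and is induced by glucocorticoids in many cell types. The gene, at chr9:48462416-48644050, had 1566, 1530, 1629 and 1465 normalized counts in wild-type libraries 1 to 4 and 1057, 1196, 1143 and 1235 in Mbd2-/- libraries 1 to 4. All 4 Mbd2-/- libraries were below the wild-type range, and the gap between the genotypes was wider than the range within either. The means were 1547 ± 68.7 and 1158 ± 76.9 (SD, n = 4), a log2 difference of -0.42 (SE 0.06, 95% interval -0.55 to -0.29, adjusted p = 2.51e-04, limma). The 22 alternatives gave log2 differences from -0.45 to -0.34, and all were called. Among the 14503 other tested genes, the log2 counts of Dgkq (Pearson's r of 0.996), Adarb1 (0.989) and Gpr161 (0.987) followed those of Zbtb16 most closely over the 8 libraries. Their log2 differences were -0.30, -0.26 and -0.41, and these correlations include the difference between the genotypes.

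The other 3 target genes did not change at the threshold. Fkbp5, at chr17:28536040-28654469, encodes the cochaperone that restrains the glucocorticoid receptor. It had 950, 814, 846 and 849 normalized counts in wild-type libraries 1 to 4 and 744, 809, 800 and 799 in Mbd2-/- libraries 1 to 4. The genotypes did not overlap, but the gap between the closest libraries, 814 and 809, was small beside the spread within each genotype. The log2 difference was -0.13 (95% interval -0.26 to -0.00, adjusted p = 0.135, limma), and none of the 22 alternatives called it.

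Sgk1, at chr10:21601990-21719709, encodes a kinase that regulates sodium channels and other transporters. It had 1476, 1372, 1327 and 1391 normalized counts in wild-type libraries 1 to 4 and 1222, 1318, 1224 and 1334 in Mbd2-/- libraries 1 to 4. Mbd2-/- library 4 exceeded the lowest wild-type library, and the others lay below that range. The log2 difference was -0.13 (95% interval -0.24 to -0.01, adjusted p = 0.113, limma), and the gene was called only without Mbd2-/- replicate 4 (adjusted p = 0.0244, limma). Sgk1 is the gene whose promoter window holds the full receptor element shown above.

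Tsc22d3, at chrX:137074067-137135198, encodes GILZ, a mediator of the anti-inflammatory action of glucocorticoids. It had 1025, 909, 914 and 945 normalized counts in wild-type libraries 1 to 4 and 919, 974, 926 and 926 in Mbd2-/- libraries 1 to 4. The Mbd2-/- values lay inside the wild-type range. The log2 difference of -0.02 had a 95% interval of -0.14 to 0.10 (adjusted p = 0.863, limma), and it was 0.02 without wild-type replicate 1. The Sgk1 and Tsc22d3 values of single libraries deviated from their genotype means together (Pearson's r of 0.754, Spearman's rho of 0.786, n = 8, exact permutation p = 0.0434 and 0.0382), as did those of Fkbp5 and Tsc22d3 (0.886 and 0.881, both with an exact permutation p of 0.00347). Without the 2 libraries farthest from the median r was 0.778 and 0.592. Neither passed after adjustment over the 45 pairs (0.304 and 0.156 for r, exact permutation).

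**Figure D2:**
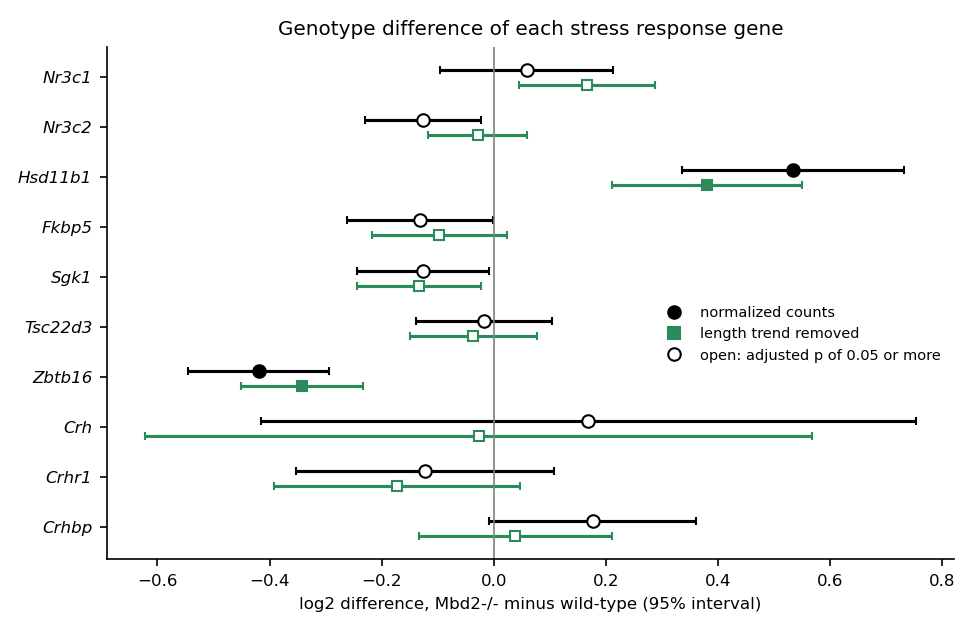
Log2 difference between Mbd2-/- and wild-type (horizontal axis) of each of the 10 genes with its 95% interval (limma), from the normalized counts (black circles) and after the trend on transcript length was removed (green squares), where open symbols did not pass the test. Hsd11b1 (0.53 and 0.38) and Zbtb16 (-0.42 and -0.34) are filled in both, and Nr3c2 moves from -0.13 to -0.03.

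The genes of the CRH system did not change at the threshold. Crhbp, at chr13:96201326-96214786, encodes a secreted protein that binds and neutralizes CRH. It had 189, 223, 219 and 236 normalized counts in wild-type libraries 1 to 4 and 268, 234, 247 and 229 in Mbd2-/- libraries 1 to 4. The genotypes overlapped, and the lowest value was wild-type library 1 and the highest Mbd2-/- library 1. The log2 difference was 0.18 (95% interval -0.01 to 0.36, adjusted p = 0.158, limma), and it was 0.04 with the length trend removed.

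Crhr1, at chr11:103994169-104036837, encodes the main CRH receptor of the brain. It had 123, 120, 119 and 101 normalized counts in wild-type libraries 1 to 4 and 109, 106, 118 and 93.2 in Mbd2-/- libraries 1 to 4. The genotypes overlapped, and library 4 was the lowest in each. The log2 difference was -0.12 (95% interval -0.35 to 0.11, adjusted p = 0.449, limma).

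Crh, at chr3:19593401-19595396, was the gene with the fewest reads, 5 to 23 per library. Its normalized counts were 7.49, 13.5, 16.4 and 12.2 in wild-type libraries 1 to 4 and 12.8, 12.8, 12.8 and 16.3 in Mbd2-/- libraries 1 to 4. The Mbd2-/- values fell inside the wild-type range. The log2 difference of 0.17 had a 95% interval of -0.42 to 0.75 (adjusted p = 0.702, limma), the widest of the 10 genes. It was -0.03 with the length trend removed and -0.04 without wild-type replicate 1. Of 10 markers of the hypothalamus and amygdala, where CRH neurons are numerous, 8 were under the minimum count, and Hcrt and Pmch were below 1 normalized count in every library. The other two, named once their values were known, were Lmo3, with a mean of 1352 normalized counts and a log2 difference of -0.02 (adjusted p = 0.844, limma), and Dlk1, which fell from 84.3 ± 10.4 to 36.0 ± 4.48 (SD, n = 4, log2 difference -1.20, adjusted p = 7.67e-05, limma).

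Levels of different genes can be compared only per transcript length, and they were computed as RPKM, the reads on a gene scaled by the length of its longest annotated transcript and by the reads on all genes of the library. In wild-type hippocampus Sgk1 (35.6 ± 1.60, SD, n = 4) and Nr3c2 (34.6 ± 0.652) were highest, and their ranges overlapped. Tsc22d3 (26.1 ± 1.43) and Zbtb16 (24.0 ± 1.02) followed and also overlapped. Nr3c1 (19.5 ± 1.13), Fkbp5 (17.8 ± 1.17) and Hsd11b1 (15.8 ± 1.55) formed a chain in which each overlapped its neighbour. Crhbp (10.2 ± 0.945), Crhr1 (3.73 ± 0.328) and Crh (0.745 ± 0.223) came last and were apart from each other. In Mbd2-/- hippocampus Hsd11b1 (22.7 ± 3.12) took rank 4 in place of rank 7, and Zbtb16 (17.8 ± 1.11) moved from rank 4 to rank 6. These ranks were not separated, since the Mbd2-/- range of Hsd11b1 (19.0 to 26.5) overlapped those of Tsc22d3, Nr3c1 and Zbtb16.

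**Figure D3:**
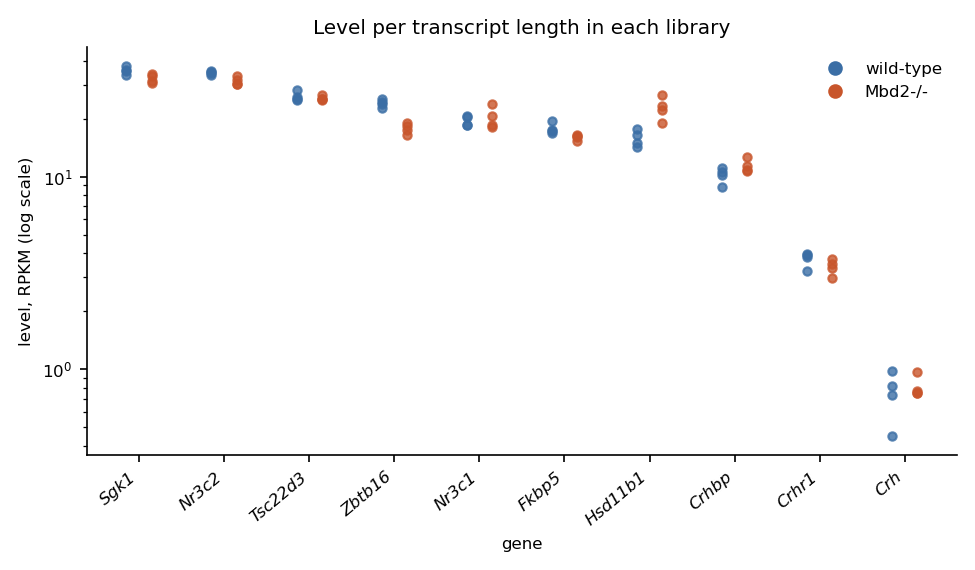
Level of each gene in RPKM, per length of its longest transcript (vertical axis, log scale), in the 4 wild-type (blue) and 4 Mbd2-/- (orange) libraries, ordered by the wild-type mean. Levels run from 35.6 for Sgk1 down to 0.745 for Crh, and the orange points are apart from the blue ones in Nr3c2, Zbtb16, Fkbp5 and Hsd11b1.

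Other genes of the pathway were taken from lists of known function. Of 30 other genes that corticosteroid receptors are known to regulate, 7 fell and 5 rose, against 10.0% and 12.0% of all tested genes. Their median log2 difference was 0.01, beside -9.10e-05 over all tested genes. With the length trend removed 7 fell and 3 rose, with a median of -0.10, against 6.81% and 8.09% of the genes tested in that way (14.9% in either direction). In 10 of the 30 the libraries of one genotype all lay above those of the other, against 23.6% of all tested genes. The number that rose was 3 without wild-type replicate 1 or 4, where 8.49% of all tested genes were called higher, and 8 without Mbd2-/- replicate 4, where 17.9% were, and the number that fell stayed between 5 and 7 when any library was left out.

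Among the decreases, Per1, a clock gene with receptor elements in its promoter, had 1168, 1145, 1240 and 1145 normalized counts in wild-type libraries 1 to 4 and 927, 932, 1003 and 955 in Mbd2-/- libraries 1 to 4 (log2 difference -0.30, SE 0.05, adjusted p = 0.00140, limma). The genotypes did not overlap. Plin4, which encodes a lipid droplet coat protein, had 108, 69.2, 108 and 73.8 in wild-type and 33.2, 38.4, 44.6 and 51.9 in Mbd2-/- libraries (log2 difference -1.06, SE 0.18, adjusted p = 7.48e-04, limma). Hif3a, which encodes a hypoxia inducible factor subunit, fell from 83.3 ± 10.2 to 49.4 ± 9.49 normalized counts (SD, n = 4, log2 difference -0.75, adjusted p = 0.00262, limma), and Map3k6, which encodes a stress kinase, from 66.8 ± 10.0 to 41.8 ± 7.41 (log2 difference -0.67, adjusted p = 0.00848, limma). The remaining 3 were Lcn2 (-1.05), Klf9 (-0.19) and Errfi1 (-0.19), named once their values were known. Klf9 lost its call without wild-type replicate 2, 3 or 4 or Mbd2-/- replicate 2 (adjusted p from 0.0519 to 0.111, limma), and Errfi1 without wild-type replicate 1, 3 or 4 or Mbd2-/- replicate 1 or 2 (adjusted p from 0.0668 to 0.106, limma).

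Among the increases, Glul, the glutamine synthetase of astrocytes, rose from 24911 ± 637 to 30639 ± 1048 normalized counts (SD, n = 4, log2 difference 0.30, adjusted p = 1.97e-04, limma). The metallothionein Mt1, which binds zinc and copper, had 2106, 2179, 2593 and 2237 in wild-type and 4246, 3867, 3472 and 2956 in Mbd2-/- libraries (log2 difference 0.67, adjusted p = 4.36e-04, limma). Its neighbour Mt2 had a log2 difference of 0.40 (adjusted p = 0.00730, limma) and the transcription factor Cebpd one of 0.37 (adjusted p = 0.0194, limma). Removing the length trend lowered the log2 difference of Mt1 to 0.34, still called (adjusted p = 0.00262, limma), and the calls of Mt2 and Cebpd were lost (0.618 and 0.273 as adjusted p, limma). Cebpd also lost its call when wild-type replicate 1, 2 or 4 or Mbd2-/- replicate 1 was left out (adjusted p of 0.0643, 0.0610, 0.0533 and 0.0763, limma). The fifth, Pdk4, had a log2 difference of 0.30 and was named once its values were known. It lost its call without wild-type replicate 1, 3 or 4 or Mbd2-/- replicate 2 (adjusted p from 0.0600 to 0.0966, limma). Rhob, which with Glul had the highest mean counts of the list, had a log2 difference of 0.13 (adjusted p = 0.148, limma). With 1 library left out, Rhob was called only without Mbd2-/- replicate 4 (0.20, adjusted p = 0.00161, limma). Dusp1, Nfkbia, Txnip and Cebpb, also named once their values were known, had log2 differences between 0.00 and 0.02, which turned to values between -0.16 and -0.01 with the length trend removed, and none was called either way.

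**Figure D4:**
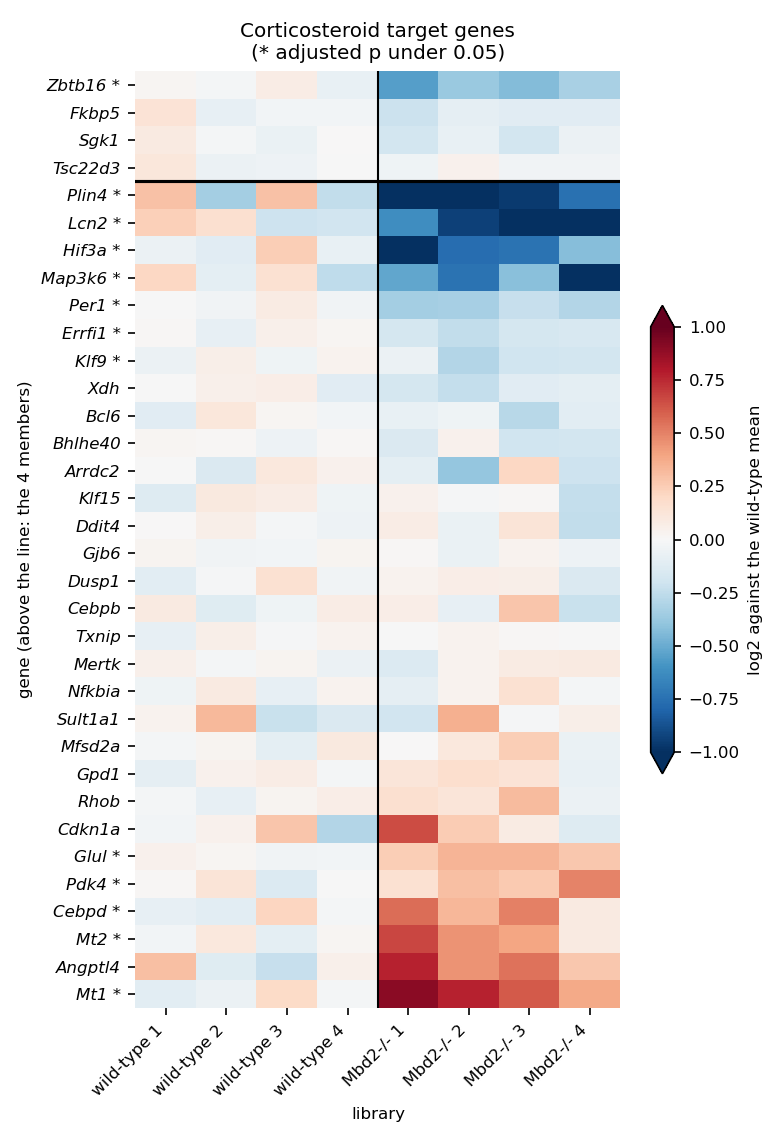
Log2 normalized count of 4 target genes among the 10 (above the line) and 30 other corticosteroid targets (below it) in each library, relative to the wild-type mean of the gene, from -1 (blue) to 1 (red), where an asterisk marks an adjusted p under 0.05. Both directions are seen in Mbd2-/- libraries, from Plin4 (-1.06) to Mt1 (0.67), and Tsc22d3 is close to 0 throughout.

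Astrocytes express Glul and the metallothioneins, and astrocyte markers moved with the genotype. Of 8 markers 6 were higher and 0 lower, against 12.0% and 10.0% of all tested genes, and with the length trend removed 8 were higher, against 8.09%. Their summed count was 115653 to 118348 in wild-type and 128092 to 150851 in Mbd2-/- libraries. Most of this sum was Slc1a2, and without it the sums were 30476 to 31615 and 37633 to 39535. In tissue RNA, more cells of a type and more RNA per cell cannot be told apart, and the part of astrocytes in the increases was not tested.

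Markers of neighbouring tissue moved as well. All 12 choroid plexus markers were higher, with a summed count of 14639 to 15900 in wild-type and 31571 to 39001 in Mbd2-/- libraries, and 9 of 12 thalamus markers were lower, from 5579 to 5699 down to 3814 to 4304. Most of the choroid plexus sum was Ttr, and without it the sums were 2345 to 2523 and 4060 to 4267. Without Rora, the thalamus marker with the highest count, the thalamus sums were 4150 to 4209 and 2823 to 2928. Of 8 markers each, 6 were higher for oligodendrocytes, 5 for microglia and 2 for the endothelium, and 3 were lower for the neocortex, against 12.0% higher and 10.0% lower among all tested genes. After the length trend was removed, 6, 3 and 3 were higher, and for the neocortex 1 was lower and 1 higher, against 8.09% and 6.81%. Of 12 markers of hippocampal principal neurons 2 were higher and 3 lower, with sums of 13775 to 13869 and 13090 to 13575. Without Fibcd1, the marker of these with the highest count, the sums were 11582 to 11826 and 11535 to 11746, and the genotypes overlapped. Of 12 interneuron markers 5 were higher and 4 lower, against the same 12.0% and 10.0% of all tested genes. Removal of the length trend gave 1 higher and 3 lower among the principal neuron markers, and 1 higher and 4 lower among those of interneurons, where Sst, Pvalb, Vip, Cck and Reln were no longer called and Slc32a1 became called (lower). All these hippocampal markers were detected in each genotype. The part of any of these tissues or cells in the changes of Hsd11b1 and Zbtb16 was not tested. The paper states that hippocampi of both sexes were grouped, with their numbers balanced between groups. In the 8 libraries used here Xist had 0 to 5.77 normalized counts, and Ddx3y on the Y chromosome 469 to 939. The sex of the pools was not tested.

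Receptor chaperones fold the receptors and hold them ready for the hormone, and of 12 measured 1 rose and 1 fell, against 12.0% and 10.0% of all tested genes. The increase was in Bag1 (from 952.8 ± 36.6 to 1118 ± 74.2 normalized counts, SD, n = 4, log2 difference 0.23, adjusted p = 0.0133, limma) and the decrease in Hspa4 (from 3478 ± 48.6 to 3160 ± 59.1, log2 difference -0.14, adjusted p = 0.0352, limma). With the length trend removed, Bag1 was not called (0.04, adjusted p = 0.681, limma) and neither was Hspa4 (-0.08, adjusted p = 0.217, limma), while Ppid, named once its values were known, was (0.21, adjusted p = 0.0492, limma). The chaperones with the highest counts, Hsp90ab1 and Hspa8, had log2 differences of -0.04 and 0.04 (adjusted p of 0.545 and 0.528, limma). The median of the list was 0.07. Bag1 was not called without wild-type replicate 4 or Mbd2-/- replicate 1 (adjusted p of 0.0526 and 0.0517, limma), and Hspa4 was called only without Mbd2-/- replicate 3 or 4 and with all libraries (adjusted p from 0.0708 to 0.114 without any other).

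Receptor coregulators carry histone modifying and remodelling activity to the receptors on DNA, and of 14 measured 6 fell and 0 rose, against 10.0% and 12.0% of all tested genes. At an unadjusted p under 0.05, 9 were lower and 0 higher in limma, against 17.0% and 18.5% of all tested genes, and edgeR and DESeq2 gave the same counts, against 16.4% and 15.4% lower. All 3 steroid receptor coactivators were among the 6. Ncoa3 had 770, 728, 774 and 769 normalized counts in wild-type libraries 1 to 4 and 595, 640, 596 and 691 in Mbd2-/- libraries 1 to 4 (log2 difference -0.27, SE 0.06, adjusted p = 0.00645, limma), and its genotypes did not overlap. Ncoa2 had a log2 difference of -0.24 (adjusted p = 0.0162, limma) and Ncoa1 of -0.17 (adjusted p = 0.0411, limma). The remodelling ATPase Smarca4 fell from 2333 ± 43.8 to 2092 ± 107.7 (SD, n = 4, log2 difference -0.16, adjusted p = 0.0351, limma). Med1 (-0.17) and Ep300 (-0.19), named once their values were known, were the other two. The corepressor Ncor1 had -0.05 (adjusted p = 0.508, limma) and Nsd1 -0.18 (adjusted p = 0.0584, limma). In all, 13 of the 14 had a negative log2 difference, with a median of -0.16, whereas 7259 of the 14504 tested genes did. The longest transcript of a coregulator had 3250 (Hdac2) to 12784 bases (Nsd1), and with the length trend removed 0 of the 14 were called by limma, 1 was lower at an unadjusted p under 0.05 (14.4% of all genes tested in that way), and the median was -0.05. The number that fell was 10 without Mbd2-/- replicate 4, where 17.7% of all tested genes were called lower, and 1 to 3 without any other library, where 5.99% to 9.52% were. Ncoa3 kept its call without each library in turn, and Ncoa2 lost it without wild-type replicate 2 or Mbd2-/- replicate 2 (adjusted p of 0.0609 and 0.0531, limma). Ncoa1 lost it without any library but Mbd2-/- replicate 4, and Smarca4 without any but Mbd2-/- replicate 3 or 4 (adjusted p from 0.0590 to 0.120 and from 0.0585 to 0.101, limma). Med1 and Ep300 were called only with all libraries or without Mbd2-/- replicate 4 (adjusted p from 0.0578 to 0.117 and from 0.0585 to 0.146 without any other).

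Other peptides of the stress axis were scarce. Of 13 genes 3 were not listed and 5 (Ucn, Avp, Avpr1a, Avpr1b and Oxt) were under the minimum. Of the 5 tested, 0 were called by limma, edgeR or DESeq2, against 22.0% of all genes tested by limma. At an unadjusted p under 0.05 there were 0 in each, against 35.5% of all genes tested by limma. The median log2 difference of the 5 tested genes was -0.10. Adcyap1r1, the receptor of the peptide PACAP, had 3217 ± 119 and 3007 ± 153 normalized counts (SD, n = 4, log2 difference -0.10, adjusted p = 0.182, limma), and the oxytocin receptor Oxtr 86.5 ± 5.91 and 73.3 ± 11.1 (-0.24, adjusted p = 0.176, limma).

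Among 15 other genes of steroid metabolism and transport, 10 were tested, and 2 rose and 0 fell by limma, edgeR or DESeq2, against 12.0% and 10.0% of all genes tested by limma, with 1 lower at an unadjusted p under 0.05 in limma. Tspo, a mitochondrial protein linked to cholesterol import, had 40.5, 51.2, 52.0 and 52.6 normalized counts in wild-type libraries 1 to 4 and 81.7, 79.6, 105 and 50.9 in Mbd2-/- libraries 1 to 4 (log2 difference 0.65, SE 0.18, adjusted p = 0.0193, limma). Mbd2-/- library 4 lay inside the wild-type range and the others far above it. Cyp7b1, which hydroxylates neurosteroids, rose from 346.5 ± 19.5 to 421.5 ± 49.3 (SD, n = 4, log2 difference 0.28, adjusted p = 0.0283, limma). With the length trend removed the log2 differences were 0.37 and 0.20, and neither was called (adjusted p of 0.128 and 0.141, limma). Tspo lost its call when wild-type replicate 1, Mbd2-/- replicate 1 or Mbd2-/- replicate 2 was left out (adjusted p of 0.0699, 0.0600 and 0.0567, limma), and Cyp7b1 did when wild-type replicate 1, 2 or 3, Mbd2-/- replicate 1 or Mbd2-/- replicate 2 was (adjusted p from 0.0648 to 0.103, limma), and the number that rose was 0 in each of the 3 cases in which Tspo was not called. H6pd, which supplies the cofactor for the Hsd11b1 reaction and was named once its values were known, had 183.4 ± 3.43 and 158.7 ± 15.6 (log2 difference -0.21, adjusted p = 0.101, limma). Hsd11b2, which inactivates the hormone and was also named once its values were known, was close to the detection floor in both genotypes, at 3.21 ± 1.26 and 2.95 ± 2.91 normalized counts (SD, n = 4). The drug exporter Abcb1a, which limits the entry of glucocorticoids into the brain, had a log2 difference of -0.07 (adjusted p = 0.582, limma).

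**Figure D5:**
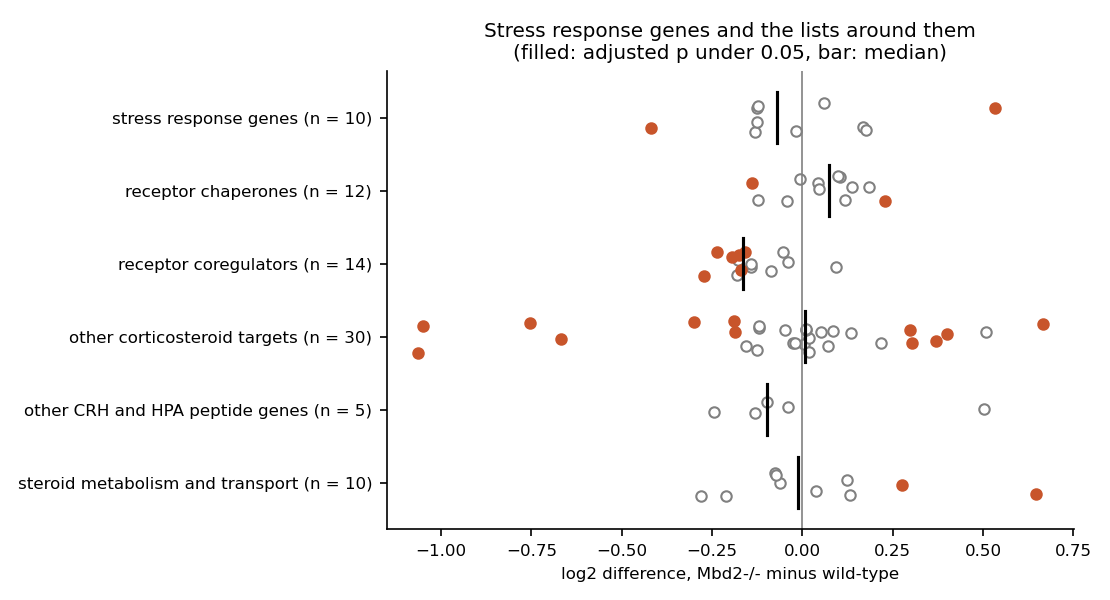
Log2 difference between Mbd2-/- and wild-type (horizontal axis) of each tested gene, in rows for the 10 stress response genes and 5 lists of related genes, with called genes filled in orange and a bar at the median of each row. The medians run from -0.16 for the receptor coregulators to 0.07 for the receptor chaperones, and the 30 other corticosteroid targets spread from -1.06 to 0.67.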

How the data were processed

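RNA from hippocampus was depleted of ribosomal RNA and sequenced as paired ends of 100 bases in 8 libraries, 4 per genotype. The authors removed duplicated reads, aligned with STAR to mm9 and compared the genotypes with DESeq2. The versions, the counting tool and its strand setting are not given in the sources used here. For each library the authors deposited a signal, the normalized count, made by dividing reads by a DESeq2 size factor, and the deposited mean is the average of the 8 values. The log2 fold changes and standard errors, the score (a Wald statistic) and the p-value columns were deposited by the authors from their own comparison and were not used. Reads were recovered by division by the smallest value above 0 of each library (100% of values whole to within 0.01 of a read), with 8087750 to 23790825 reads per library. Reads are not independent molecules, so depth speaks of counting error only, and the spread between libraries set the precision of most genes.

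Genes averaging 10 or more normalized counts were compared after log2(normalized count + 1), a scale that understates changes of low genes, with limma 3.58.1 in R 4.3.3 (mean-variance trend, robust moderation, no covariate, two-sided). The threshold was an adjusted p of 0.05 (Benjamini-Hochberg) over all tested genes. The script was tested on simulated data. Values after ± are SDs, and the p-values measure the spread between pools. Positions and lengths follow GENCODE vM1 on mm9, to which 18097 symbols were matched. Replicate numbers were not treated as pairs in the main test. Alternatives were other pseudocounts (0.5 and 5), filters (none and 50), scalings (TMM, upper quartile, median of ratios), plain limma, limma-voom, edgeR 4.0.16, DESeq2 1.42.0, a replicate block, removal of the length trend (a lowess curve of the deviations of each library on log2 transcript length), both together, and each library left out in turn. For pairs of stress genes, deviations from the genotype means were permuted exactly within genotypes (576 arrangements).

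The genes and lists were chosen with earlier results of these data known. Named genes are the 10 stress genes, Mbd2, the called genes of each list (at most 4 per direction by adjusted p), the 2 of highest mean count per list, and the 3 genes most like the stress gene of smallest adjusted p. For any other gene given with its own value the text says that its values were known when it was named, genes of the marker lists apart.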

Additional observations from a re-analysis of the deposited data

Results flagged for a closer look

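Of 70 groups of 4 libraries examined for a library far from the other 3, by the gap to its neighbour over the range of the group, 7 were beyond Dixon's critical value at 95%, where chance alone flags about 1 group in 20. In Mbd2-/- libraries these were Fkbp5 in library 1 (744 normalized counts, the others 799 to 809), Tsc22d3 in library 2 (974, the others 919 to 926) and Crh in library 4 (16.3, the others 12.8). In wild-type libraries they were Crhr1 in library 4 (101, the others 119 to 123), Hif3a in library 3 (98.5, the others 76.7 to 79.4), Ncoa3 in library 2 (728, the others 769 to 774) and Tspo in library 1 (40.5, the others 51.2 to 52.6).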

How the results depend on the processing

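Hsd11b1 and Zbtb16 kept their direction and call in all 22 alternatives. Deviations from the genotype means in same-numbered libraries had correlations of -0.10, -0.06, 0.07 and 0.04, which cannot settle whether the samples were paired. With a replicate block 3192 genes were called beside 3185, and the chaperone Hspa4 was not (0 chaperones lower). With the length trend removed, alone or with the replicate block, 2114 and 2329 genes were called, other targets called higher were 3, steroid genes higher 0, chaperones lower 0 and coregulators lower 0, and with both together Nr3c1 was called (0.17, adjusted p = 0.0324, limma), so that 2 stress genes were higher. Without trend or robust moderation limma called 3 other targets higher, 0 steroid genes higher, 0 chaperones lower and 1 coregulator lower. In that setting 8.56% of all tested genes were called higher and 6.45% lower, against 12.0% and 10.0% in the main analysis. Mbd2 (-0.43) then had an adjusted p of 0.0731 (limma). Without a filter 3 coregulators were lower, against 6.83% of all tested genes. The cause was not tested.

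With the length trend removed, with or without the block, the sign turned in these stress genes and genes named by the rule: Crh (-0.027), Abcb1a (0.0016), Adcyap1r1 (0.0028) and Ncor1 (0.079), none of them called. With 1 library left out it also turned in Nr3c1 (range -0.019 to 0.10, lowest without Mbd2-/- replicate 4), Tsc22d3 (-0.037 to 0.021) and Crh (-0.036 to 0.31) without wild-type replicate 1, and Abcb1a (-0.11 to 0.0016) without Mbd2-/- replicate 3. With 1 library left out, the calls ranged from 2073 to 5156 over all genes, 1 to 3 for stress genes lower, 1 for stress genes higher, 3 to 8 and 5 to 7 for other targets higher and lower, 0 to 3 and 0 to 2 for chaperones, 1 to 10 for coregulators lower and 0 to 2 for steroid genes higher, with Mbd2 between -0.56 and -0.35. Crh, with 5 to 23 reads per library, has no value under DESeq2 or a minimum of 50.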
